A study of Mus musculus with 6 samples.

Results

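A set of 8 long and small transcripts, grouped as noncoding RNAs, was followed in mouse hippocampus after focal ischemia. They are Neat1, 1810026B05Rik, Dleu2, Gm27010, Gm17024, Snora31, A930033H14Rik and Foxl2os. They were chosen by gene name from the authors' deposited table and make up 8 of its 637 genes. The tissue was hippocampus of C57BL/6 wild-type mice aged 56 days, with 3 samples after focal middle cerebral artery occlusion (MCAO, here called ischemia) and 3 after a sham operation. Both groups carry the label 2 h, which can stand for the duration of the occlusion or for an interval since surgery. The labels name neither the hemisphere sampled nor whether each sample was a separate animal, so the p-values measure a spread that may be technical. The value columns are headed M2 and S2 and were read as MCAO and sham by their initials, and every direction below rests on that reading.

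For each group, the table gives a mean of normalised reads per gene, and it lists called genes only, so the presence of the 8 transcripts in it is no finding of its own. The authors' adjusted p-values imply 28319 genes tested, of which 2.25% were called at an adjusted p of 0.05, 1.47% as higher and 0.784% as lower in ischemia. The depth of the libraries is unknown. Relative size factors recovered from the means lay between 0.837 and 1.20 in ischemia and between 0.874 and 1.20 in sham. The identity of the tissue could not be checked, since the table gives no value for uncalled genes. In such bulk tissue, fewer cells of a type and less RNA per cell cannot be told apart.

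Noncoding RNAs act in several ways. Neat1 is the long nuclear RNA on which paraspeckles, protein-rich bodies that hold back certain RNAs and proteins, are built. Small nucleolar RNAs (snoRNAs) of the H/ACA class, such as Snora31, are cut out of introns of a host gene and guide the change of uridine to pseudouridine in other RNAs. Dleu2 is the host transcript of the microRNAs miR-15a and miR-16, which repress messenger RNAs that pair with their seed. 1810026B05Rik, which RefSeq calls Chaserr, lies just before the chromatin remodeler gene Chd2, which it is known in mouse to restrain. In the GENCODE M21 annotation 7 of the 8 transcripts have a noncoding biotype, and A930033H14Rik is annotated as protein coding both there and in RefSeq.

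The sequences shown are those of the small RNAs whose identity depends on short elements, and of the promoters of the genes that hold 3 of the transcripts. The snoRNA Snora31 (chr14:75847905-75848034, plus strand, GRCm38, GENCODE M21) is 130 bases long, and capitals mark the ACA box, which stands 3 bases before the end of the RNA. The mature microRNAs that lie in Dleu2, from RefSeq on GRCm38.p6, are miR-15a-5p (chr14:61632075-61632096, minus strand) and miR-16-5p (chr14:61631936-61631957, minus strand). Capitals mark the seed, bases 2 to 8, which is the same in both.
Snora31: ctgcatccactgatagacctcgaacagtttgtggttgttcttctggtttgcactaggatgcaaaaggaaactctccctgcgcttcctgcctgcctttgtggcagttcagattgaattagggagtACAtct
miR-15a-5p: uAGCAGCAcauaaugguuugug
miR-16-5p: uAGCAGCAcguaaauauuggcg

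Promoters from RefSeq (GRCm38.p6) run from 250 bases before to 50 bases after the annotated start. They were matched for 4 of the 8 transcripts (Dleu2, Foxl2os, A930033H14Rik and 1810026B05Rik, the last by its RefSeq name) and for Ifrd1 and Tpt1, which hold Gm17024 and Snora31. Both strands were searched for the cyclic AMP response element TGACGTCA and its core TGACG, the AP-1 site TGANTCA, the hypoxia response core ACGTG, the heat shock element GAANNTTC and the EGR site GCGTGGGCG. The element TGACGTCA contains the core TGACG, and the letters ACGTG and TGACG can overlap. Capitals mark matches in the promoters of Dleu2 (chr14:61682324-61682623, minus strand), Ifrd1 (chr12:40223140-40223439, minus strand) and Tpt1 (chr14:75845006-75845305, plus strand).
Dleu2: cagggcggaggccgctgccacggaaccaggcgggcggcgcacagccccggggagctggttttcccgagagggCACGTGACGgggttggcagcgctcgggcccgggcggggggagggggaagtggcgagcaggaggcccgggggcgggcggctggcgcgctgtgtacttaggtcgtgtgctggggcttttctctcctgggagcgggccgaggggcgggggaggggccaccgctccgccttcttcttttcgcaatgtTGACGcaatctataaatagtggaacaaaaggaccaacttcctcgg
Ifrd1: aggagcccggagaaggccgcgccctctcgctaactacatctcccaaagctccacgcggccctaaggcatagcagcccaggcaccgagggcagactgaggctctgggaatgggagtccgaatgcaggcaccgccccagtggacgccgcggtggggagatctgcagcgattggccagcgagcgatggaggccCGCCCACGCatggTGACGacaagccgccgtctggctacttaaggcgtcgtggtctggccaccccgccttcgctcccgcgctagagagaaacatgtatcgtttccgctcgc
Tpt1: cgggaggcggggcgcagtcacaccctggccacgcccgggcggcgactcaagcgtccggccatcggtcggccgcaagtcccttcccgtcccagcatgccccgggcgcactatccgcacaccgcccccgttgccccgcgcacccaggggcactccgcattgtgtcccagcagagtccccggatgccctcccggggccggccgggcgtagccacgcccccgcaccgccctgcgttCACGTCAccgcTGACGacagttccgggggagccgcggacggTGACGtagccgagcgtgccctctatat

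The core TGACG was found in the promoters of Dleu2, A930033H14Rik, Ifrd1 and Tpt1, against 20.8% of all 32851 promoters. In Dleu2 it began 174 bases before the start and at base 6 after it, and in Ifrd1 47 bases before the start. The hypoxia core ACGTG was found in those of Dleu2, A930033H14Rik and Tpt1, against 19.6% of all promoters. The EGR site was found in 1 of the 6, that of Ifrd1, where it began 60 bases before the start, against 0.612% of all promoters. The full element TGACGTCA, the AP-1 site and the heat shock element had 0 matches in the 6 promoters, against 1.79%, 7.81% and 7.86% of all promoters. The promoters of 1810026B05Rik and Foxl2os held 0 of these letters. A match describes the letters of this window and is no evidence that a factor binds there.

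Of the 8 transcripts, 7 rose and 1, Foxl2os, fell in ischemia. Of all 637 listed genes, 415 rose and 222 fell, which are 1.47% and 0.784% of all genes tested. The 8 transcripts were chosen from these called genes, so that they were called is fixed by the choice. Their median log2 fold change in the authors' deposited table was 1.06, beside 0.66 over all 637 listed genes, and that of the 7 that rose was 1.07, equal to the median of 1.07 over the 415 higher genes. Most of them rest on few reads: their median sham mean was 59.3 normalised reads, beside 979 over all listed genes in the authors' deposited table, with no account of length in either.

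**Figure D1:**
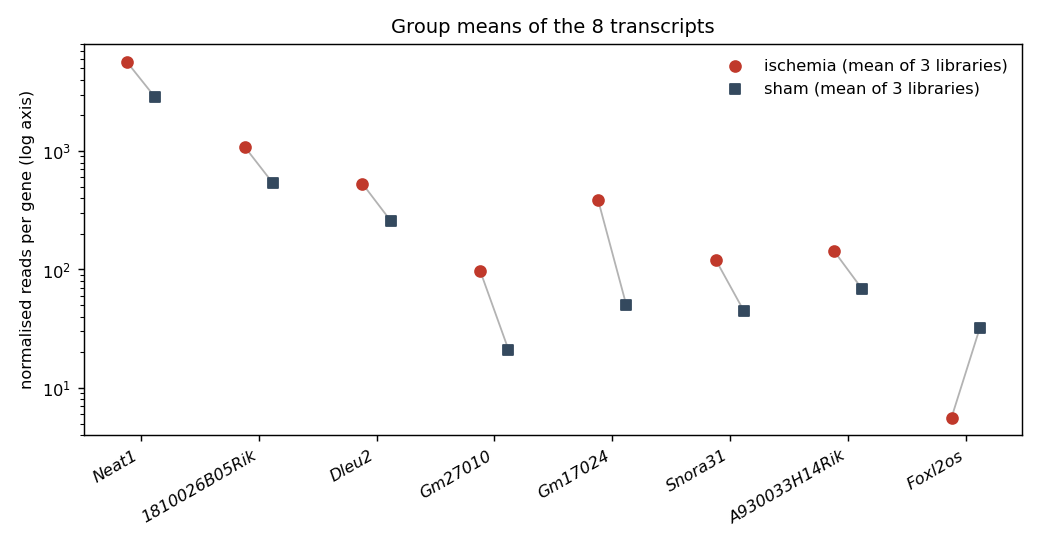
Mean normalised reads per gene (log axis) of the 8 transcripts in ischemia (red circles) and sham (dark squares), each a mean of 3 libraries as deposited, with a line joining the 2 means of 1 transcript. Ischemia stands above sham for 7 transcripts and below it for Foxl2os, where the means are 5.62 in ischemia and 32.0 in sham.

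Neat1 had the most reads of the 8. Its mean was 5671 normalised reads in ischemia and 2849 in sham in the authors' deposited table, a 1.99-fold rise (log2 fold change 0.99, adjusted p = 0.0112). The annotated gene is a single block of exons of 20771 bases and holds 3 short RNAs on its own strand, whose reads cannot be told apart from those of Neat1. Its neighbours Malat1 and Frmd8 are not listed. Of 21 genes for paraspeckle proteins, 0 are listed in either direction, which at the 2.25% called among all genes tested is not informative for a list of this size. The table gives no value for an uncalled gene, so their levels are not known here.

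1810026B05Rik had the smallest p-value of the 8, although its fold was like that of Neat1. Its mean was 1089 normalised reads in ischemia and 537 in sham in the authors' deposited table, a 2.03-fold rise (log2 fold change 1.02, adjusted p = 6.80e-08). Of 8620 exonic bases in GENCODE M21, 2628 are also exonic in Chd2 on the same strand. Chd2 itself is not listed. Whether reads from the shared bases were counted for 1 gene, both or neither is stated in none of the sources used here.

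Dleu2 rose 2.06-fold in the authors' deposited table, with means of 531 normalised reads in ischemia and 258 in sham (log2 fold change 1.04, adjusted p = 0.0393), the largest adjusted p of the 8. The sham mean splits into 233, 241 and 298 normalised reads in the 3 libraries. The ischemia mean has 3 possible splits, whose lowest library is at 394, 155 or 62.6 normalised reads. Whether the groups overlap therefore cannot be said, since the lowest ischemia library lies above all sham libraries in 1 of the 3 splits. Its neighbours Trim13 and Kcnrg, which overlap it on the opposite strand, are not listed, nor are Mir15a and Mir16-1.

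Gm27010, a long noncoding RNA of unknown role, lies wholly inside Dleu2 on the same strand, with 0 of its 863 exonic bases shared with an exon of Dleu2. Reads of unspliced Dleu2 RNA from these bases cannot be told apart from those of Gm27010. Its 3 ischemia libraries were at 126, 90.0 and 75.5 normalised reads, against 17.2, 11.7 and 34.2 in sham. These rest on 275 reads in ischemia and 69 in sham. All ischemia libraries were above all sham libraries. The means were 97.0 ± 25.7 in ischemia and 21.02 ± 11.7 in sham (SD, n = 3 each; exact two-sided permutation test, p = 0.1, the smallest that 3 against 3 allows). In the authors' deposited table this is a 4.61-fold rise (log2 fold change 2.21, adjusted p = 0.000173). The log2 fold change of Gm27010 was thus 1.16 above that of Dleu2, and its normalised reads, with no account of length, were 18.3% of those of Dleu2 in ischemia and 8.16% in sham. The difference between these folds was not tested, since Dleu2 has no single split in ischemia.

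Gm17024 is annotated as a sense intronic transcript of Ifrd1, a gene for a transcriptional co-regulator induced by growth factors, and shares 0 exonic bases with it. Reads of unspliced Ifrd1 RNA from the same bases cannot be told apart from those of Gm17024. Gm17024 showed the largest rise of the 8, 7.75-fold in the authors' deposited table, with means of 388 normalised reads in ischemia and 50.002 in sham (log2 fold change 2.95, adjusted p = 0.00665). Its host Ifrd1 rose 7.07-fold, with means of 8855 normalised reads in ischemia and 1252 in sham in the authors' deposited table (log2 fold change 2.82, adjusted p = 0.00662). The reads of Gm17024 were 4.38% of those of Ifrd1 in ischemia and 3.99% in sham. The log2 fold change of Gm17024 was 0.13 above that of Ifrd1 as deposited. That closeness rests on all 3 sham libraries, since the log2 fold change of Gm17024 ran from 2.62 to 3.73 when 1 sham library was left out. Neither ratio has an error and the host could not be recomputed without a library, since Ifrd1 could not be split.

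The sham libraries of Gm17024 were uneven, at 24.0, 34.3 and 91.7 normalised reads, or 21, 38 and 110 whole reads. The ischemia mean has 4 possible splits, whose lowest library is at 104, 162, 241 or 264 normalised reads, so every ischemia library lies above every sham library in each split. Without sham library C, the highest, the log2 fold change was 3.73 in place of 2.95. Library C was also the highest sham library for Gm27010 and Dleu2, and it was the highest for 27.0% of the 189 sham means with a single split.

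**Figure D2:**
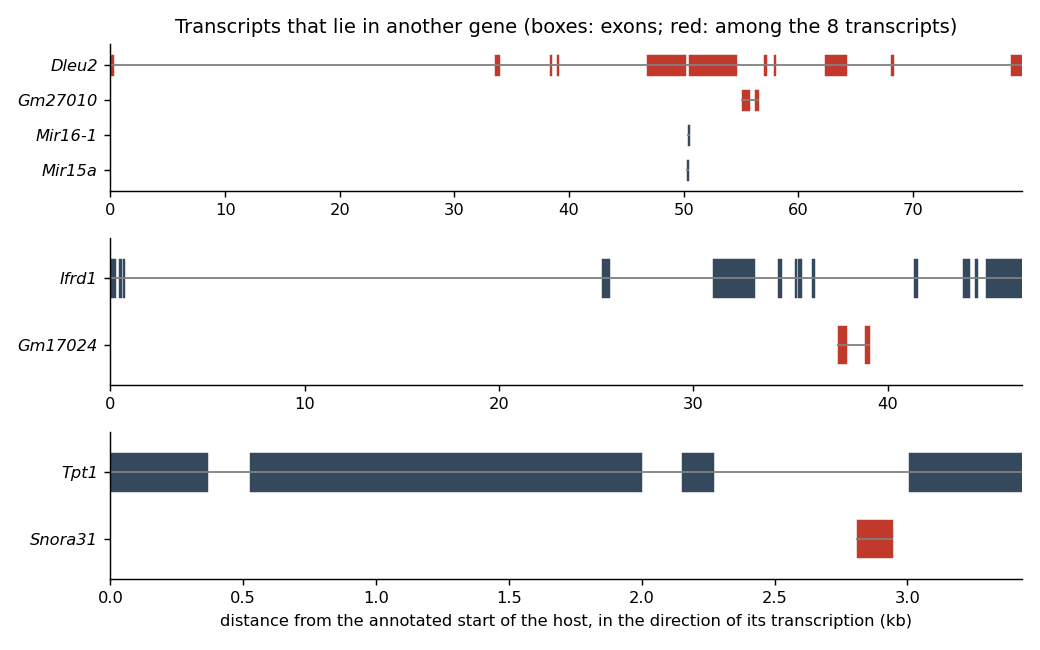
Position of transcripts that lie in a listed gene on the same strand, with exons as boxes from GENCODE M21. Distances are in kb from the annotated start of the host along its direction of transcription. A930033H14Rik, which lies in Rhobtb1 on the opposite strand, is not drawn. Gm27010 in Dleu2, Gm17024 in Ifrd1 and Snora31 in Tpt1 each stand between exons of the host.

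Snora31 lies in an intron of Tpt1, which encodes the abundant growth-related protein TCTP. Reads of unspliced Tpt1 RNA from these bases cannot be told apart from those of Snora31. Its ischemia libraries were at 118, 93.4 and 149 normalised reads, against 52.6, 31.6 and 48.3 in sham. All ischemia libraries were above all sham libraries. The means were 120.1 ± 27.6 in ischemia and 44.2 ± 11.1 in sham (SD, n = 3 each; exact two-sided permutation test, p = 0.1), a 2.72-fold rise in the authors' deposited table (log2 fold change 1.44, adjusted p = 0.00096). Tpt1 rose 1.62-fold, with means of 16681 normalised reads in ischemia and 10295 in sham in the authors' deposited table (log2 fold change 0.70, adjusted p = 0.0172). The log2 fold change of Snora31 was thus 0.75 above that of its host, a difference that was not tested. Reads of Snora31 amounted to 0.72% of those of Tpt1 in ischemia and 0.429% in sham.

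Other parts of the snoRNA system were counted against the 2.25% of all genes tested that were called. At that share, lists of this size hold 0 or 1 called gene, so the counts say nothing particular of them. Of 35 other H/ACA snoRNAs, 0 are listed. Of 7 genes for H/ACA particle proteins and their assembly, 1 rose, Nolc1, a nucleolar chaperone of these particles, which in the authors' deposited table was 1.51-fold higher (adjusted p = 0.00134). Of 19 snoRNA host transcripts, 1 rose, Snhg8, which in the authors' deposited table was 1.44-fold higher (adjusted p = 0.0264). In these 3 lists, 0 genes are listed as lower.

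**Figure D3:**
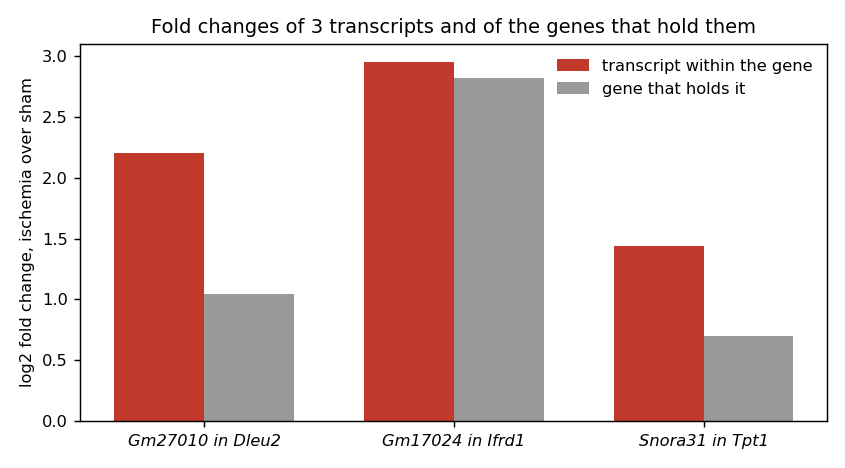
Log2 fold change, ischemia over sham, as deposited, of 3 transcripts (red) and of the genes that hold them (grey). Gm17024 and Ifrd1 stand at 2.95 and 2.82, and Gm27010 and Snora31 stand above Dleu2 and Tpt1.

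A930033H14Rik, whose product has no role that could be stated here, lies inside Rhobtb1 on the opposite strand and shares 15 exonic bases with it. Whether reads were counted by strand is not stated, so reads of unspliced Rhobtb1 RNA may be among those of A930033H14Rik. The ischemia libraries of A930033H14Rik were at 152, 138 and 144 normalised reads, against 64.1, 76.8 and 65.0 in sham. The libraries of each group lay close together, with a coefficient of variation of 4.88% in ischemia and 10.3% in sham, the smallest of the 4 transcripts that could be split in both groups. The means were 144 ± 7.04 in ischemia and 68.6 ± 7.09 in sham (SD, n = 3 each; exact two-sided permutation test, p = 0.1). The rise was 2.10-fold in the authors' deposited table (log2 fold change 1.07, adjusted p = 0.0199), and Rhobtb1 is not listed.

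Foxl2os was the 1 transcript of the 8 that fell. It runs antisense from Foxl2, a transcription factor gene best known for its role in the ovary, and shares 12 exonic bases with it. The 3 ischemia libraries held 3, 8 and 5 whole reads, or 3.59, 9.11 and 4.15 normalised reads, against 37, 29 and 33 whole reads, or 42.3, 26.2 and 27.5 normalised reads, in sham. All ischemia libraries were below all sham libraries. The means were 5.62 ± 3.04 in ischemia and 32.0 ± 8.96 in sham (SD, n = 3 each; exact two-sided permutation test, p = 0.1). Foxl2os had a log2 fold change of -2.51 in the authors' deposited table (adjusted p = 0.0255), rank 3 from the lowest of the 637 genes. Foxl2 is not listed.

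**Figure D4:**
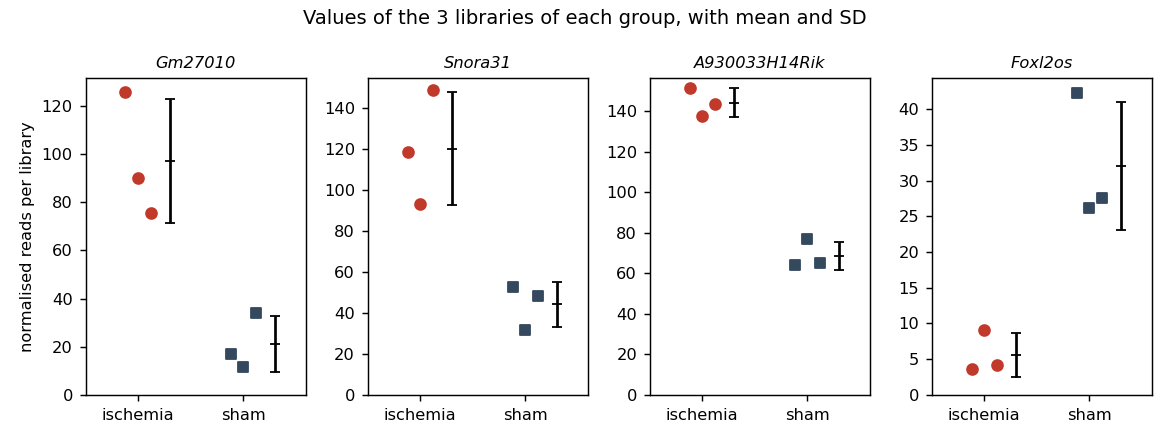
Normalised reads in the 3 libraries of ischemia (red circles) and sham (dark squares) for the 4 transcripts whose means split in a single way in both groups, with the mean and SD in black. The groups do not overlap in any panel, and each vertical scale starts at 0.

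The groups did not overlap for any of these 4 transcripts, Gm27010, Snora31, A930033H14Rik and Foxl2os, which had been called by the authors on the same libraries, as had 2.25% of all genes tested. How often the groups overlap among all listed genes was not counted, so this count has nothing to be set beside. Adjusted over these 4 permutation tests by Benjamini-Hochberg, each exact p stays at 0.1. Across the 8 transcripts, levels per kb of exon in sham were highest for Snora31 (340 normalised reads per kb), then Neat1 (137), Gm17024 (78.9) and 1810026B05Rik (62.3). The place of Gm17024 in this order is not settled, since its coefficient of variation between sham libraries was 72.9%. The order of Snora31 and Neat1 depends on the lengths used, in either group. Snora31 was divided by only 130 bases and can hold reads of unspliced Tpt1 RNA. Neat1 was divided by 20771 bases, the union of its 4 annotated transcripts. Gm27010, A930033H14Rik and Dleu2 lay between 22.7 and 24.4 normalised reads per kb in sham, closer together than the spread of Gm27010 between sham libraries, whose coefficient of variation was 55.7%. Foxl2os was lowest at 9.65. In ischemia the order of levels per kb was Snora31 (924), Gm17024 (611), Neat1 (273), 1810026B05Rik (126), Gm27010 (112), A930033H14Rik (48.6), Dleu2 (46.8) and Foxl2os (1.69). The values of 1810026B05Rik and Gm27010 in ischemia were closer than the coefficient of variation of Gm27010 there, 26.5%, and those of A930033H14Rik and Dleu2 were closer than that of A930033H14Rik, 4.88%. The mean per kb of Gm17024 stood above that of Neat1 in ischemia and below it in sham, where the place of Gm17024 is not settled. Whether single ischemia libraries keep this order is not known, since that mean of Gm17024 has 4 possible splits and Neat1 was not split.

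**Figure D5:**
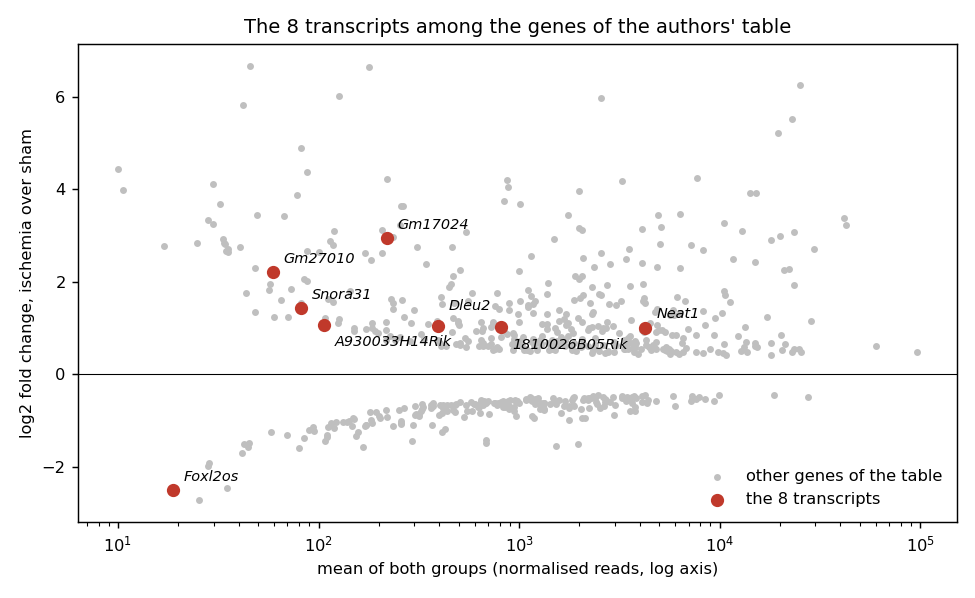
Log2 fold change, ischemia over sham, against the mean of both groups (normalised reads, log axis) for the genes of the authors' table, without 2 genes at 0 in sham. The 8 transcripts (red) spread over most of the horizontal axis, and Foxl2os at -2.51 is among the lowest points.

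Among all listed genes found by symbol in GENCODE M21, 17 have a noncoding biotype, 7 of them among the 8 transcripts. Of these 17, 16 rose and 1, Foxl2os, fell, with a median log2 fold change of 1.44 in the authors' deposited table. Of 547 protein-coding genes, 345 rose and 202 fell, with a median of 0.62. The span of another listed gene overlapped in 8 of the 17 noncoding genes (47.1%) and in 10 of the 547 coding genes (1.83%), as a description with no test. These 8 are not separate loci, since 1700016P03Rik overlaps Mir212 and Mir132, and Dleu2 overlaps Gm27010. The same loci are thus counted repeatedly among the 17, also in the 16 that rose. The 3 members inside a listed gene, Gm27010, Gm17024 and Snora31, lie on its strand and rose with it. A930033H14Rik also lies inside another gene, Rhobtb1, but on the opposite strand, and Rhobtb1 is not listed. In a list of 44 long noncoding and microRNA transcripts, Mir212, Mir132, Neat1 and Dleu2 rose, 0 fell and 40 are not listed, against 1.47% higher and 0.784% lower among all genes tested. Neat1 and Dleu2 were chosen from the called genes, so their part in this count is fixed by the choice. In the authors' deposited table Mir212 was 16.6-fold higher (adjusted p = 0.0121) and Mir132 18.7-fold higher (adjusted p = 0.0449). Both overlap, on the same strand, 1700016P03Rik, whose log2 fold change was 3.96. Their rises are therefore not separate observations.

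The seed of miR-15a and miR-16 has known targets in other tissues. Of 15 such genes, 2 rose and 0 fell in ischemia, against 1.47% and 0.784% of all genes tested, and a count this small is given as a description. The list was chosen with earlier results of these data known, so the count is no evidence of an excess. In the authors' deposited table the neurotrophin gene Bdnf was 6.43-fold higher (adjusted p = 0.0233). Smad7, which encodes an inhibitor of TGF-beta signalling, was 3.70-fold higher in the same authors' deposited table (adjusted p = 0.00650). The mature microRNAs were not analysed here.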

How the data were processed

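RNA of 6 hippocampal samples, 3 per group, was sequenced after Trizol extraction with Illumina library protocols, per the labels' protocols. The aligner Bowtie 0.12.2 and the build mm8 are named, without a role, per the submitters' processing notes. Gene identifiers follow the Ensembl BALB/cJ annotation. How reads were counted, normalised and tested, and whether by strand, is stated in none of the sources used here. The deposited signal is a mean of normalised reads, which the authors took over each group. The deposited log2 fold change equals the log2 ratio of the means within 4.97e-05, with no pseudocount. The p-value and adjusted p-value are the authors' own; their relation matched 28319 genes tested in 636 of 637 rows.

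The members and lists were chosen with earlier results of these data known. All members were named, with host and overlapping genes and up to 4 listed genes per list by adjusted p; a cell type marker and a nearest gene that this rule names are not reported here. The table has no values per sample, so the planned limma or edgeR fits were not run. Group means were split into whole reads per library by lattice reduction on the 12 lowest means, with steps above 0.2 and a tolerance of 0.6 of the last digit, and tested on simulated data. The splitting cannot choose between sets of size factors where those of a group nearly coincide: an earlier simulated table of that kind was left with more than 1 set. Simulated tables with the recovered size factors were added after that failure, and a later change of the simulated range redrew the failing table, so the failure is not among the final simulated tables. In the deposited means 1 set remained in each group. Letters A to C order the libraries of a group by size factor, with no link to replicate numbers. Of means up to 450, 139 of 172 in ischemia and 189 of 195 in sham had 1 split, and 0 had none. Means above 600 were not split. Annotation was GENCODE M21 (GRCm38), matched by symbol, so exons may differ from those counted. Of the list symbols, 20 of 21 for paraspeckle proteins, 16 of 19 for snoRNA hosts and 41 of 44 for long noncoding RNAs are in it, and all of the other lists. Python 3.11.15, numpy 2.4.6, scipy 1.17.1, sympy 1.14.0 and matplotlib 3.10.9 were used.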

Additional observations from a re-analysis of the deposited data

How the results depend on the processing

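At an adjusted p of at most 0.01, 4 of the 8 transcripts remained called (1810026B05Rik, Gm27010, Snora31 and Gm17024), and with Bonferroni correction 2 (1810026B05Rik and Gm27010). A log2 fold change of 1 or more in size, as deposited, was met by 7, not by Neat1. An average of 50 or more normalised reads over both groups was met by 7, not by Foxl2os. With the fold requirement, the lists of H/ACA particle proteins (1 of 7) and snoRNA hosts (1 of 19) went to 0 called genes, as did that of neighbours and hosts (1 of 12, Tpt1), which does not hold the host Ifrd1 at a log2 fold change of 2.82. These settings only remove calls. Log2 fold changes were recomputed with a pseudocount of 1 or 10, or without 1 library, which gave 46 values. Their sign could not change. A pseudocount was added to both means, and each group that lost a library lay wholly on 1 side of the other group's mean. Only the sizes are therefore informative. The pseudocount of 10 gave -1.43 for Foxl2os and 0.97 for A930033H14Rik. Leaving out 1 library gave 1.92 to 2.75 for Gm27010, 1.25 to 1.59 for Snora31, 1.03 to 1.16 for A930033H14Rik and -3.05 to -2.26 for Foxl2os. With sham libraries only, it gave 2.62 to 3.73 for Gm17024 and 0.98 to 1.16 for Dleu2, which thus fell on both sides of 1. Other scalings were not run. No paired analysis was possible because the table holds group means and the recovered libraries carry no replicate numbers.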

Other observations

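The listed genes nearest to 5 of the transcripts over the 2 group means on the log2 scale came from many functions. Neat1 lay nearest to Ciapin1 and Sqle, a cholesterol synthesis enzyme gene, at distances of 0.05 and 0.07. Dleu2 lay nearest to Rel, an NF-kappaB subunit gene, at 0.09, and Snora31 to the cytokine gene Lif at 0.09. Gm27010 lay nearest to Cd180 at 0.18. Foxl2os lay nearest to Ptgfr at 0.04, which had means of 5.48 normalised reads in ischemia and 32.3 in sham in the authors' deposited table. A likeness over 2 means is a description only.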
